A study of Drosophila melanogaster with 12 samples.

Results

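A group of 113 probe sets lay below Mock at every time after Unpaired (UPD) in Kc167 cells, out of 18769 probe sets on the array that are not controls. Kc167 is an established Drosophila melanogaster line with properties of embryonic blood cells. A probe set entered the group if its mean over the 12 arrays was above 5 on the deposited log2 scale, both UPD arrays lay below both Mock arrays at 2, 4 and 10 h, and the mean of the 3 group-mean differences, UPD minus Mock, was −0.6 or lower. The basement membrane genes vkg, Col4a1, Ppn and Pxn were left out by name, and 2 of their probe sets met the other criteria. Of the 113 members, 103 are listed for 1 gene each, all different, 3 for several genes and 7 for none. The members were chosen by their UPD minus Mock values, so these are given as a description with no test.

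The groups were UPD medium and Mock medium at 2, 4 and 10 h, with 2 biological replicates each. Wells of Kc167 cells, with no further genetic change named in the labels, received conditioned medium for 30 min, which was then exchanged for plain Schneider's medium, and time is counted from the start of the exposure. The labels do not say what the conditioned media contained beyond UPD or Mock. Separate cultures are named only as biological replicates, and with 2 arrays a group the number of arrays limits the precision.

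UPD is a secreted cytokine-like ligand that binds the receptor Domeless and activates the Janus kinase Hopscotch, which phosphorylates the transcription factor Stat92E. In flies the pathway acts in blood cell formation, immune and stress responses and stem cell niches. Transcripts that fall after a ligand is added can do so through lower synthesis or faster decay, and an array of total RNA measures only their level. In such bulk samples fewer cells of a type and less RNA per cell cannot be told apart.

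The arrays at 10 h differed from the others in ways that touch the members. Over the 6731 probe sets with a mean above 5, called bright below, the median UPD minus Mock difference was −0.10 at 2 h, 0.03 at 4 h and −0.46 at 10 h on the log2 scale. The upper quartile of all values at 10 h was 6.10 and 6.63 with UPD, against 7.12 and 6.88 with Mock. For Act5C, whose control probe sets report RNA integrity and labelling, the 3′ probe set exceeded the 5′ one by 1.37 and 1.25 after UPD and by 1.15 and 1.14 after Mock at 10 h. The same excess was 0.95 and 0.96 after UPD and 1.17 and 0.72 after Mock at 4 h, and 0.71 to 0.89 on the 4 arrays of 2 h. The part of these features in the members' differences was not tested, beyond the normalization given at the end. Of 16 blood cell markers, 8 were bright, among them srp, Hml, Nplp2 and drpr, while NimC1, eater, He and Sr-CI had means of 1.71, 2.86, 1.07 and −0.32. Of 13 measured markers of other cell types, 3 were bright: the germ line genes aub (9.53) and bam (7.27) and the neuronal gene elav (6.46).

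The members lay only slightly below Mock at 2 and 4 h and far below it at 10 h. Their median difference was −0.28 at 2 h (quartiles −0.40 and −0.19), −0.34 at 4 h (−0.48 and −0.23) and −1.59 at 10 h (−1.79 and −1.38). For 110 of the 113 the largest difference was at 10 h, where all 113 lay below the median of the bright probe sets and 106 were at −1 or lower. Of all 6731 bright probe sets, 1429 reached −1 or lower on the 10 h arrays. Their 10 h differences spread more widely (quartiles −0.91, −0.05) than their 2 h ones (quartiles −0.19, −0.02). A limit on the mean of the 3 differences therefore favours probe sets with low 10 h values. Nothing is read from these counts of the members. The gap between the lowest Mock array and the highest UPD array had a median of 0.16 at 2 h, 0.13 at 4 h and 1.06 at 10 h. This gap exceeded the distance between replicates in both groups for 56 members at 2 h, 34 at 4 h and 86 at 10 h. The members' replicate SD had a median of 0.07 in UPD and 0.06 in Mock at 2 h. It was 0.11 in UPD and 0.10 in Mock at 4 h, then 0.32 in UPD and 0.39 in Mock at 10 h, so the late differences are larger and also less precise.

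Separation of this kind was common among bright probe sets. Both UPD arrays lay below both Mock arrays in 50.2% of them at 2 h, 14.4% at 4 h, 41% at 10 h and 5.69% at all 3 times, with the 4 names included. Since the rule demands this separation of each member, nothing is read from these shares beyond the fact that 4 h was the most selective time. The mirrored rule, with UPD above Mock at each time and a mean of 0.6 or more, was met by 16 probe sets. On the scale of single arrays the median level of the members was 7.16 on both UPD arrays and 7.45 and 7.43 on the Mock arrays at 2 h. At 4 h it was 6.99 and 6.76 with UPD against 7.15 and 7.17 with Mock. At 10 h it was 5.16 and 5.63 with UPD against 7.39 and 6.79 with Mock.

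**Figure D1:**
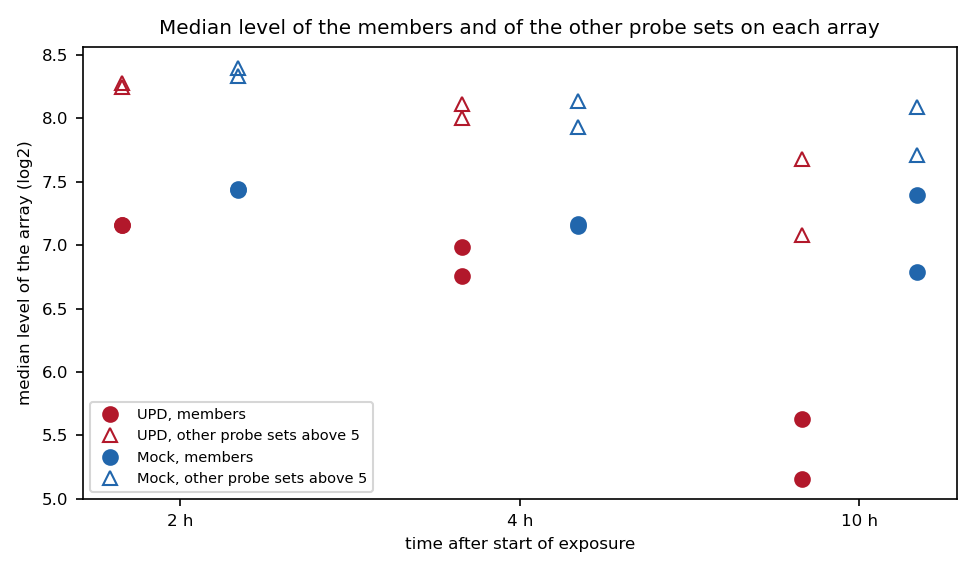
Median log2 level over the 113 members (filled circles) and over the other probe sets with a mean above 5 (open triangles) on each of the 12 arrays, by time, with UPD in red and Mock in blue. The UPD arrays at 10 h stand lowest for both sets, at 5.16 and 5.63 for the members, while the Mock arrays at 10 h are at 7.39 and 6.79.

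The 12 members with 1 gene and the lowest mean difference were GlcT, Ucp4A, CG34376, sol, baz, CG2930, mtd, Gli, CG3764, MYPT-75D, Br140 and Tpst. Their differences ran from −0.55 to −0.09 at 2 h, from −0.87 to −0.21 at 4 h and from −3.25 to −2.13 at 10 h. GlcT, the glucosylceramide synthase that makes the core of glycosphingolipids, had values of 5.21 and 5.29 after UPD and 5.77 and 5.82 after Mock at 2 h. At 4 h GlcT stood at 5.10 and 5.33 after UPD against 5.44 and 5.40 after Mock, and at 10 h at 3.48 and 1.60 against 6.10 and 5.49. The UPD arrays at 10 h are the low ones, they differ from each other by more than the Mock arrays do, and GlcT at 10 h after UPD was 0.105 times the Mock level as a ratio of the group means on the log2 scale. The mean of GlcT over the 12 arrays was 5.0016, just above the limit of 5.

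Ucp4A, a mitochondrial carrier of the uncoupling protein family, stood at 6.06 and 5.96 after UPD and 6.11 and 6.09 after Mock at 2 h, and at 5.75 and 5.43 against 6.05 and 6.33 at 4 h. At 10 h Ucp4A was at 3.02 and 2.38 after UPD and 6.26 and 5.18 after Mock. The gap between its UPD and Mock arrays was 0.024 at 2 h and 0.308 at 4 h, and at 10 h its group means differed by −3.02. The calpain protease gene sol, known for the loss of small optic lobe neurons in its mutants, stood at 8.0 and 7.94 after UPD and 8.10 and 8.02 after Mock at 2 h, and at 7.71 and 7.60 against 7.87 on both Mock arrays at 4 h. At 10 h sol was at 5.25 and 4.77 after UPD and 8.38 and 7.74 after Mock. On the deposited scale Mock at 10 h was close to Mock at 2 h for sol, and both UPD arrays at 10 h were lower. The median Mock group mean of the other bright probe sets was 8.37 at 2 h and 7.87 at 10 h.

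The polarity gene baz, the fly Par-3, was at 5.66 and 5.72 after UPD and 5.76 and 6.15 after Mock at 2 h, and at 5.58 and 5.03 against 5.99 and 6.36 at 4 h. At 10 h baz stood at 3.31 and 4.15 after UPD against 6.36 and 5.51 after Mock. With −0.87 at 4 h, baz had the largest 4 h difference among these 12. Gli, the junction protein Gliotactin, was at 3.62 and 3.64 after UPD and 6.21 and 5.72 after Mock at 10 h, the tightest UPD pair of the 12 at that time. MYPT-75D, a myosin phosphatase targeting subunit, was at 4.44 and 4.04 against 6.71 and 6.04, and mtd at 3.06 and 3.32 against 5.39 and 5.64. In all 3 the gap between the groups exceeded the distance between replicates.

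CG3764 stood at 8.04 and 8.05 after UPD and 8.38 and 8.29 after Mock at 2 h, at 7.59 and 7.57 against 8.06 and 8.15 at 4 h, and at 5.77 and 6.15 against 8.16 and 8.15 at 10 h. Its Mock arrays stayed between 8.06 and 8.38 over the course, while both UPD arrays at 10 h were far lower. Br140, a bromodomain protein of a histone acetyltransferase complex, was at 4.26 and 5.17 after UPD and 7.77 and 6.79 after Mock at 10 h. Tpst, the tyrosylprotein sulfotransferase of the secretory pathway, was at 1.82 and 3.59 against 5.12 and 5.37, and CG34376 at 4.15 and 2.09 against 5.71 and 5.77. For Tpst and CG34376 the UPD replicates lie over 1 log2 unit apart, so the size of the late difference is uncertain.

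**Figure D2:**
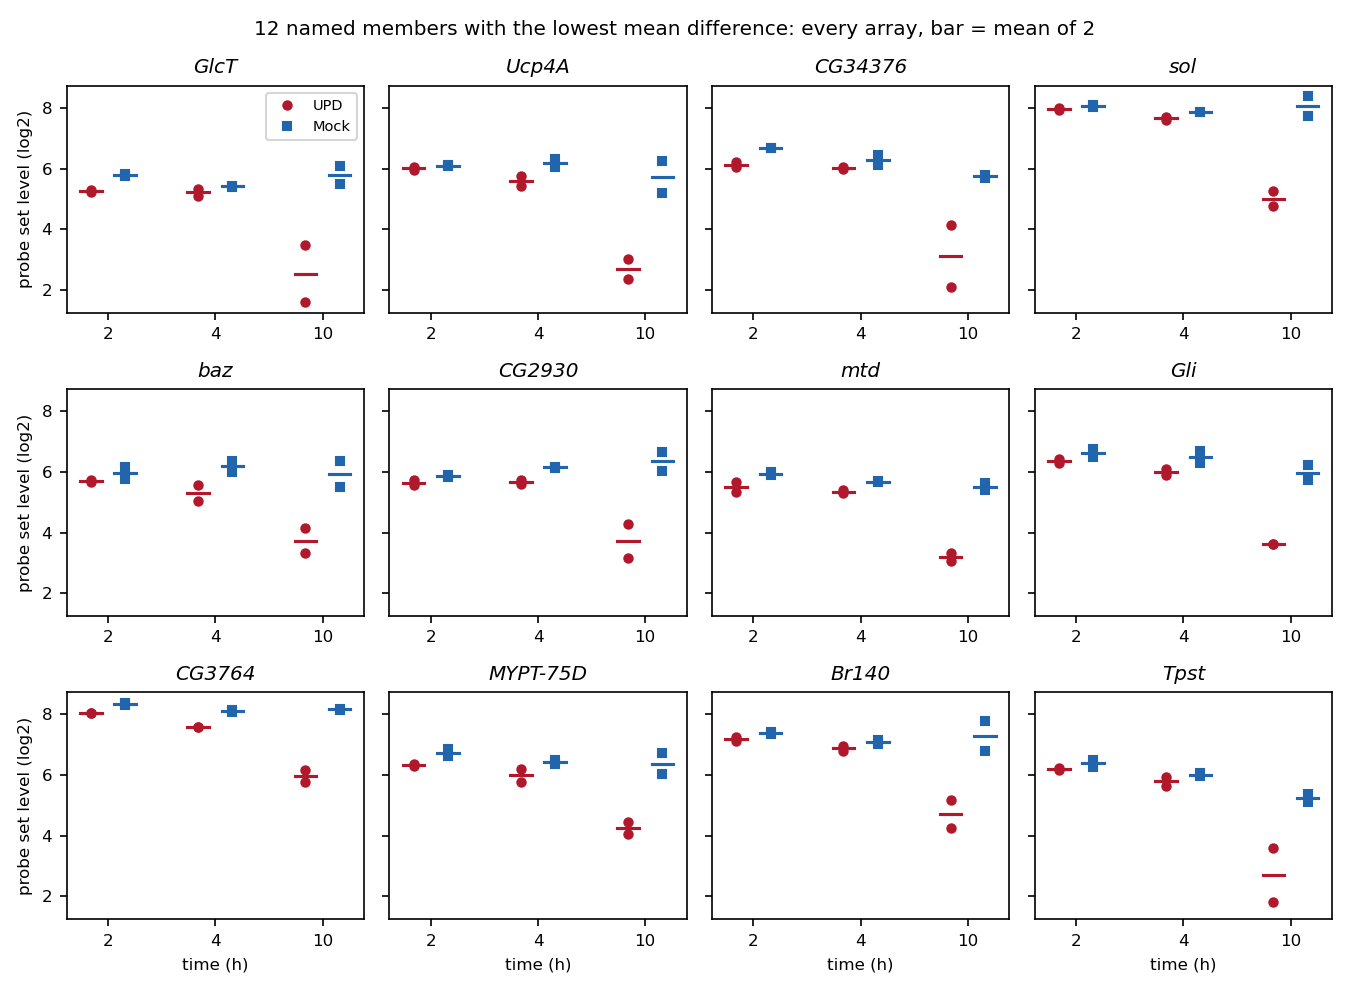
Log2 level of the 12 named members with the lowest mean difference on every array, UPD (red circles) left of Mock (blue squares) at each time, with a bar at the mean of the 2 arrays. The UPD arrays lie just under Mock at 2 and 4 h and between 2.13 and 3.25 below it at 10 h.

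The members were sorted by textbook role after the list was known, and 68 of them were placed in 8 role groups. The members of carbon, lipid and amino acid metabolism number 13, with a median of −0.34 at 2 h, −0.41 at 4 h and −1.52 at 10 h. They include both enzymes that lead from pyruvate to phosphoenolpyruvate. The pyruvate carboxylase gene PCB stood at 8.51 and 8.68 after UPD and 8.98 and 8.88 after Mock at 2 h, at 8.44 and 8.10 against 8.71 and 8.66 at 4 h, and at 7.08 and 7.52 against 9.20 and 8.77 at 10 h. Pepck1, the phosphoenolpyruvate carboxykinase gene, was at 7.53 and 7.51 against 8.10 and 8.04, then 7.32 and 7.27 against 7.64 and 7.85, then 5.97 and 6.28 against 7.93 and 7.36. For PCB and Pepck1 the gap was visible from 2 h and grew at 10 h.

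Pfk, phosphofructokinase of glycolysis, differed by −0.05 at 2 h, −0.27 at 4 h and −1.80 at 10 h. The carnitine palmitoyltransferase gene whd, which admits long-chain fatty acids to mitochondria, differed by −0.34, −0.45 and −1.38, and bgm, an acyl-CoA synthetase for very long chains, by −0.33, −0.53 and −1.37. Genes of opposite metabolic directions, glycolysis and gluconeogenesis, thus stand side by side among the members. Hnf4, a nuclear receptor known in fly larvae for genes of fatty acid oxidation, differed by −0.26, −0.32 and −1.64. Ctps, CTP synthase, stood at 7.34 and 7.33 after UPD and 7.98 and 7.84 after Mock at 2 h, one of the wider early gaps, and differed by −0.57, −0.48 and −1.21. Bcat, the branched-chain aminotransferase gene, had a similar early difference of −0.53 and was at −0.95 at 10 h.

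Membrane transport holds 11 members, with a median of −1.53 at 10 h. Sln, kar and out, 3 genes of the monocarboxylate transporter family, differed by −2.13, −1.84 and −1.53 at 10 h and by −0.41, −0.30 and −0.49 at 2 h. Sln stood at 6.13 and 6.66 after UPD and 8.53 and 8.51 after Mock at 10 h. The bestrophin chloride channel gene Best1 stood at 7.45 and 7.43 after UPD and 7.95 and 8.03 after Mock at 2 h, and at 5.48 and 6.20 against 7.39 and 7.11 at 10 h. Zip99C, a ZIP family metal transporter, had a flatter course, with −0.41, −0.51 and −0.93. Tsf2, the transferrin-like melanotransferrin of septate junctions, differed by −0.33, −0.52 and −1.70, and aralar1, the mitochondrial aspartate-glutamate carrier, by −0.15, −0.38 and −1.35.

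Cytoskeleton, polarity and adhesion form the largest role group, with 14 members and a median of −0.33 at 2 h, −0.46 at 4 h and −1.70 at 10 h. by, the fly tensin that links integrins to actin, was at 7.50 and 7.48 after UPD and 7.95 and 7.91 after Mock at 2 h, at 7.23 and 7.20 against 7.75 and 7.80 at 4 h, and at 6.12 and 6.27 against 8.33 and 7.38 at 10 h. At 2 and 4 h its replicates were close and the groups did not come near each other. unc-5, a netrin receptor, stood at 8.0 and 8.05 after UPD against 8.44 on both Mock arrays at 2 h, and differed by −0.62 at 4 h and −1.74 at 10 h. Strn-Mlck, a myosin light chain kinase of the titin family, differed by −0.45, −0.41 and −2.02. Others are the microtubule-severing gene spas (−1.76 at 10 h), the Eps8 relative aru (−2.29), the Arf GTPase-activating genes CenG1A (−1.39) and Asap (−1.32), and RhoGAP92B (−1.14), whose largest early gap was −0.65 at 4 h.

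The 9 members of membrane traffic and the secretory pathway had the smallest early gaps, with medians of −0.14 at 2 h, −0.15 at 4 h and −1.64 at 10 h. Tango5, the fly relative of the autophagy protein Vmp1, stood at 9.75 and 9.76 after UPD and 9.92 and 9.86 after Mock at 2 h, and at 7.40 and 7.98 against 9.60 and 9.30 at 10 h. Ocrl, an inositol 5-phosphatase, differed by −0.14, −0.05 and −1.69, Osbp, the oxysterol-binding protein, by −0.13, −0.12 and −1.69, and Sec63 of the endoplasmic reticulum translocon by −0.10, −0.15 and −1.59. The member probe set of Snx27, a sorting nexin, had wider early gaps, with −0.47, −0.39 and −1.52. A brighter second probe set of Snx27, with a mean level of 7.36 against 5.03, was at −0.26, −0.09 and −1.41.

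The 6 signalling members had a median of −1.53 at 10 h. wgn, a tumour necrosis factor receptor, stood at 8.24 and 8.27 after UPD and 8.67 and 8.58 after Mock at 2 h, at 8.17 and 8.09 against 8.42 and 8.51 at 4 h, and at 6.93 and 7.54 against 8.87 and 8.59 at 10 h. Mad, the Smad of BMP signalling, differed by −0.28, −0.58 and −1.21, ksr, a scaffold of the Ras-MAPK cascade, by −0.19, −0.53 and −1.65, and the kinase PKD by −0.08, −0.07 and −1.70. Transcription, chromatin and DNA polymerase genes gave 8 members with a median of −1.63 at 10 h. Beside Br140 and Hnf4 these include z, the Zeste DNA-binding protein (−0.12, −0.30 and −1.59), yem, a histone H3.3 chaperone (−0.10, −0.24 and −1.72), the Integrator subunit IntS6 (−0.24, −0.27 and −1.50) and PolG1, the mitochondrial DNA polymerase (−0.23, −0.09 and −2.20).

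Of the 4 calpain and ubiquitin members, sol and CalpC are both calpains, and CalpC differed by −0.31, −0.29 and −1.56. Trc8, a ubiquitin ligase of the endoplasmic reticulum, differed by −0.17, −0.10 and −2.04. The other 45 members, without a role group, include TP53INP, an autophagy regulator and nuclear receptor coactivator (−0.46, −0.52 and −1.92), and mlt, a tubulin cofactor relative, whose −0.72 was the second largest difference at 2 h. mlt stood at 5.54 and 5.34 after UPD and 6.12 and 6.21 after Mock at 2 h, and differed by −1.79 at 10 h.

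**Figure D3:**
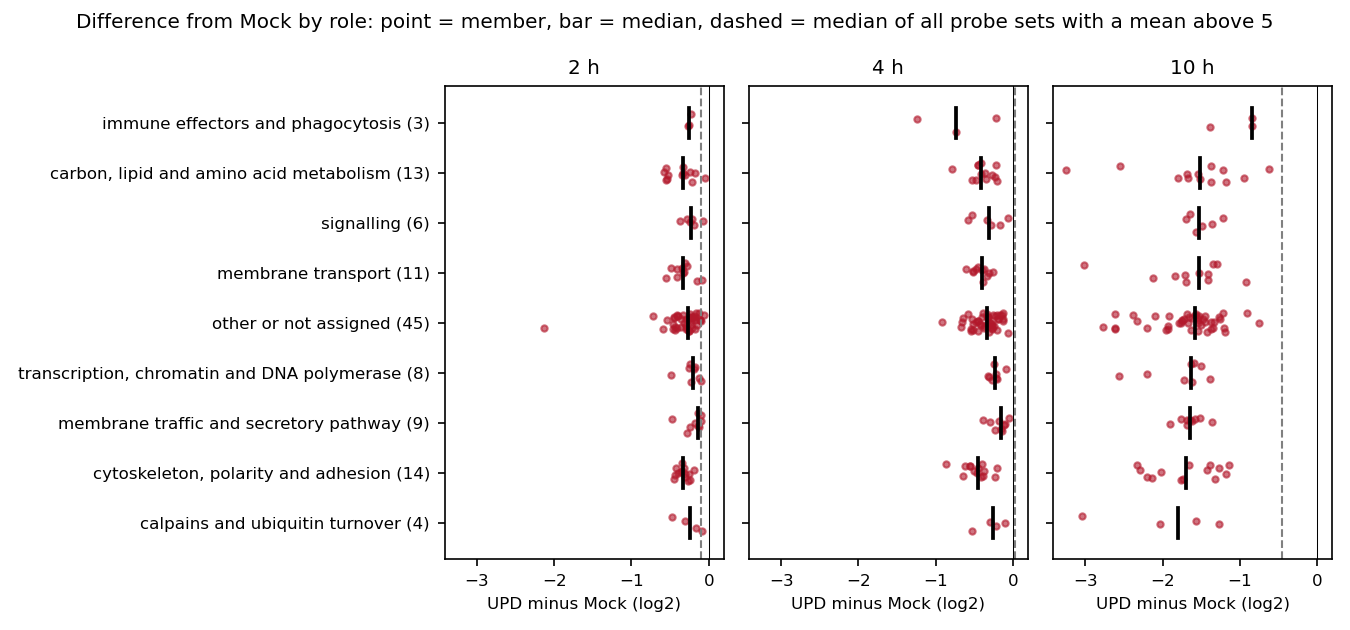
UPD minus Mock log2 difference of each member (points) by role group at 2, 4 and 10 h, with the number of members in brackets, a black bar at the group's median and a dashed line at the median of all probe sets with a mean above 5. The medians of the role groups lie between −0.34 and −0.14 at 2 h and, apart from the immune group at −0.84, between −1.80 and −1.52 at 10 h.

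A few members did not share the late profile. The probe set 1639571_s_at, listed for several genes and therefore unnamed, stood at 5.99 and 6.10 after UPD and 8.42 and 7.95 after Mock at 2 h, a difference of −2.14. At 4 h it was at 6.46 and 6.44 against 6.53 and 6.77, and at 10 h at 5.03 and 4.14 against 5.45 and 5.21. The Mock arrays at 2 h are the high ones here, and the difference was smaller at both later times.

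AttD and Cyp6a14 had their largest difference at 4 h. AttD, an attacin family antimicrobial peptide gene, was at 8.21 and 8.33 after UPD and 8.42 and 8.56 after Mock at 2 h, at 8.20 and 7.88 against 9.02 and 9.55 at 4 h, and at 6.77 and 7.08 against 8.45 and 7.09 at 10 h. The 10 h groups of AttD almost touch, with a gap of 0.0029 between the upper UPD and the lower Mock array. PGRP-LB, an amidase that cleaves peptidoglycan and dampens the Imd immune pathway, was at 8.68 and 8.45 after UPD and 9.17 and 9.43 after Mock at 4 h, and differed by −0.27, −0.73 and −0.84. The phagocytosis receptor gene drpr, the last of the 3 immune members, followed the late profile with −0.26, −0.22 and −1.39.

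Cyp6a14, a cytochrome P450 gene, stood at 5.16 and 5.26 after UPD and 5.78 and 5.74 after Mock at 2 h, at 4.79 and 4.26 against 5.30 and 5.32 at 4 h, and at 4.31 and 4.92 against 5.42 and 5.05 at 10 h. Its differences of −0.55, −0.78 and −0.62 were the most even of these 3 members. Its relative Cyp6a2 had the late profile, with −0.21, −0.41 and −1.54. The probe set 1635462_at, without a listed gene, combined an early and a late gap with −0.45, −0.91 and −1.53.

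With the differences at 2 and 4 h alone, and both separated, 7 probe sets reached a mean of −0.6 or lower, and 4 of them were members: AttD, Cyp6a14, 1635462_at and 1639571_s_at. Of the 3 that were not members, 1 is CecB, a cecropin antimicrobial peptide gene, at −0.56 at 2 h, −2.02 at 4 h and 0.38 at 10 h. These genes were named after their values were seen.

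The threshold of −0.6 cut through a continuum. Of 381 bright probe sets separated at all 3 times, without the 4 names, 268 had a mean difference nearer 0. Just inside were CG15201 (−0.61), the probe set 1631243_s_at (−0.60) and CG31064 (−0.60), and just outside were Tsp3A, CG3558 and loco (−0.60 each, none reaching −0.6).

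Medians over the members by time differed between the media mostly at 10 h. The median of the members' group means was 7.18, 6.87 and 5.43 at 2, 4 and 10 h after UPD and 7.45, 7.16 and 7.08 after Mock. For 80 of 113 members the 3 Mock means lay within 0.5 of each other. This was not counted for the other bright probe sets, so it is not read as a trait of the members. In 109 members both UPD arrays at 10 h lay below all 10 other arrays, as they did in 39.8% of the bright probe sets. Cyp6a14 was 1 of the 4 exceptions, since its UPD arrays at 4 h were as low as those at 10 h.

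Differences between times were tested in limma across all 18769 probe sets, with Benjamini-Hochberg adjustment. The rule used these same arrays, and it picks low UPD and high Mock values at 10 h. The members' counts, shares and single-gene p-values below are therefore not independent of it. They are given as a description, and nothing is read from them. Within UPD, 82 of the 113 members (72.6%) fell between 2 and 10 h, against 8.46% of all probe sets and 18.7% of the bright ones, and none rose. Examples are sol, which fell by 2.96 ± 0.33 (log2, SE from limma, adjusted p = 0.0122), Ucp4A by 3.31 ± 0.43 (adjusted p = 0.013), and Gli by 2.73 ± 0.32 (adjusted p = 0.0127). The 10 members with the smallest adjusted p were the probe sets 1635652_at and 1625761_a_at and the genes aru, CG2186, sol, Gli, mtd, TP53INP, Ucp4A and CG3764. aru stood at 6.88 and 6.98 at 2 h and at 4.19 and 3.90 at 10 h after UPD, and CG2186 at 7.001 and 7.015 at 2 h and at 4.33 and 3.99 at 10 h. This count was 14 after quantile normalization, 0 with the arrays of 2 and 10 h alone, 0 without either UPD array at 2 h, 10 without either Mock array at 2 h, 12 without either UPD array at 4 h, 36 without either Mock array at 4 h. It was 18 when UPD 10 h replicate 1 was omitted.

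In Mock no member passed between 2 and 10 h (0 of 18769 probe sets in limma, 2704 at an unadjusted p under 0.05, 7 of them members) or between 2 and 4 h (0, with 930 and 1). Between 2 and 4 h after UPD 0 members passed, with 2 calls among all probe sets, and 0 members had an unadjusted p under 0.05. The contrast of the UPD minus Mock difference at 10 h with that at 2 h, and the F test over the 3 times, are built from the differences that chose the members, so they are no test of the members. Over all 18769 probe sets in limma they called 0 and 0, with 1763 and 1671 at an unadjusted p under 0.05.

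A property that the rule did not use was the length of the genes. Genomic length in RefSeq (assembly Release 6) had a median of 7182 bp for the 103 single-gene members (quartiles 4013 and 11966) and 2703 bp for the 5897 bright probe sets with a known length (quartiles 1573 and 5601). When these 5897 were split by length into 3 classes of near-equal size, 76 members fell in the longest, 19 in the middle and 8 in the shortest. The median difference of bright probe sets at 10 h also went down with length. It was −0.12 in the shortest, −0.60 in the middle and −0.83 in the longest class. In the same order it was −0.03, −0.11 and −0.16 at 2 h and 0.03, 0.01 and 0.03 at 4 h. Within each class the members lay below the other probe sets at 10 h, with medians of −1.63 against −0.80 in the longest, −1.59 against −0.59 in the middle and −1.36 against −0.12 in the shortest, as the rule requires of them. After quantile normalization the bright probe sets that are not members had 10 h medians of 0.24, −0.11 and −0.26 from the shortest to the longest class. The share of the length trend in the members' difference was not tested. The members ranged from CG15201 with 690 bp to mtd with 80328 bp. By chromosome arm, 24.3% of the members lay on X and 11.7% on 3L, against 16.6% and 18.8% of the bright probe sets with a length.

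**Figure D4:**
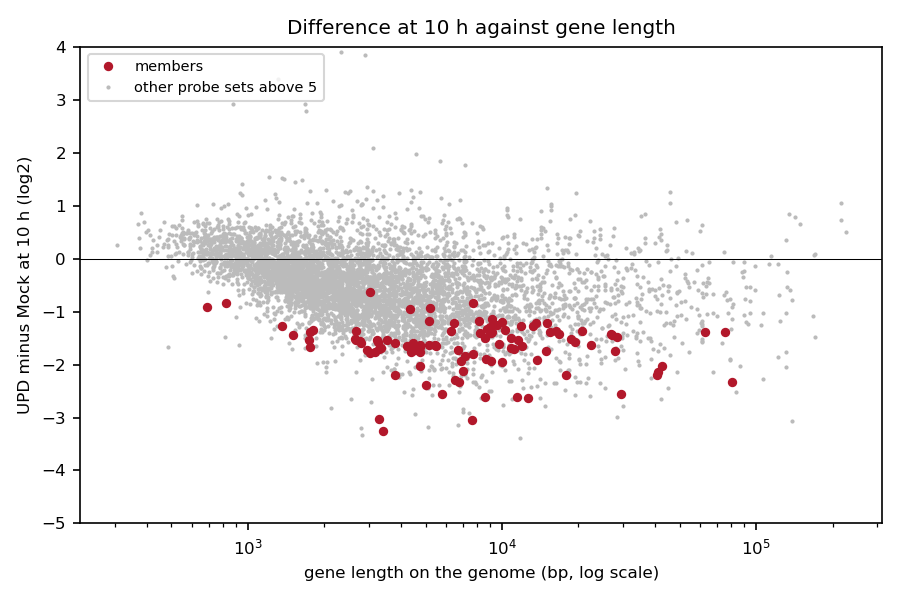
UPD minus Mock log2 difference at 10 h against genomic gene length (log axis) for the 103 members with 1 gene (red) and the other probe sets with a mean above 5 (grey), and 3 grey points lie outside the axis. The cloud slopes down with length, and 76 of the 103 members lie in the longest class of genes.

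Other probe sets of the members' genes gave a second reading from the same arrays. There were 33 of them for 24 genes, and 13 were bright. Of these 13, 12 were below 0 at 2 h, 9 at 4 h and 12 at 10 h, with medians of −0.21, −0.09 and −1.20. Of all 6731 bright probe sets, 5444, 2897 and 5223 were below 0 at these times, with medians of −0.10, 0.03 and −0.46. Most bright probe sets were thus below 0 at 2 and 10 h, and nothing is read from the counts of the 13. A mean difference of −0.6 or lower was found in 4 of the 13 and in 446 of the 6731. The 4 of the 13 belong to PCB (−0.04, −0.73 and −1.41), Trc8 (−0.24, −0.73 and −1.75), CG34376 (−0.27, −0.04 and −1.56) and yem (−0.26, −0.02 and −2.93). That of Ctps was near Mock, with −0.15, 0.11 and 0.27, so the 2 probe sets of Ctps disagree at 10 h. The bright second probe set of Tpst was at 0.06 and 0.13 at 2 and 4 h, above Mock, and at −1.20 at 10 h, against −0.18, −0.21 and −2.55 for its member probe set. A second probe set of CRMP, which encodes a collapsin response mediator family protein, was at −0.06, −0.17 and −0.31, against −1.18 at 10 h for its member probe set. A brighter second probe set of mtd, with a mean level of 7.45 against 5.20, was at −0.20, −0.26 and −0.92. The member probe set of mtd was at −0.44, −0.33 and −2.33.

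Relatives of the members with the same symbol stem were taken by the brightest probe set of each gene. Of 11 Integrator genes (IntS), all bright, 6 lay below 0 at all 3 times with a median mean difference of −0.35, and IntS6 was the only member. Of 15 Usp deubiquitinase genes, all bright, 9 lay below 0 at all times (median −0.50), and of 10 bright RhoGAP genes 7 did (median −0.38). Of 22 bright Cyp genes, out of 83 measured, 11 did (median −0.27). Among all 5628 bright genes 32.4% lay below 0 at all times and the median mean difference was −0.18.

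Of the lists kept for comparison, only the blood cell markers held a member, drpr. Members were 113 of all 6731 bright probe sets, so little could be expected of such short lists and nothing is read from these counts. The rule also left out vkg, Col4a1, Ppn and Pxn by name. Of 20 measured basement membrane and matrix genes 13 were bright. Only vkg and Pxn among the 20 had both UPD arrays below both Mock arrays at all times, and the list's median was −0.19 at 2 h, 0.02 at 4 h and −1.08 at 10 h. Of its laminin genes, the bright LanA was at −0.32, 0.45 and −0.97, LanB1 at −0.27, 0.03 and −1.37 and LanB2 at −0.14, 0.32 and −1.05. The laminin gene wb, with a mean level of 1.57, was at −3.83, 0.58 and 0.71. Of 8 organic anion transporters 3 were bright, and the bright Oatp74D was at −0.09, −0.14 and −1.90 with overlapping arrays at 1 or more times. Of 12 measured JAK/STAT components and reported targets none was a member and 2 lay below 0 at all times, ken (−0.32, −0.09 and −1.13) and the dim receptor-like gene et (−0.13, −0.10 and −1.96). The receptor gene dome was at 0.53, 0.92 and −0.98, above Mock early and below it at 10 h.

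The pattern of GlcT over the 12 arrays was most like that of niki (Pearson r = 0.986), HERC2 (0.975), CG2930 (0.973), c12.2 (0.963) and CG7065 (0.961) among the bright probe sets. niki, a NIMA-family kinase gene, and CG2930 are members, while HERC2, c12.2 and CG7065 are not. The 12 arrays share the low UPD values at 10 h, which weigh most in these correlations.

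The list depended on how the arrays were scaled. In the deposited values the median over all probe sets was 2.327 for the UPD arrays and 2.375 for the Mock arrays. With all arrays moved to 1 median 64 probe sets met the rule, all of them members. After quantile normalization the median difference of the bright probe sets was 0.00 at 2 h, −0.02 at 4 h and −0.01 at 10 h. The members then had medians of −0.14, −0.34 and −0.93, with 101, 113 and 113 of them below 0. Both UPD arrays lay below both Mock arrays for 61 members at 2 h, 91 at 4 h and 107 at 10 h, and 32 kept a mean of −0.6 or lower.

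The full rule was met by 19 probe sets after quantile normalization, of which 15 were members. They were TP53INP, aru, by, Sln, CG10274, unc-5, CG34376, mlt, CG42258, CG3764, Strn-Mlck, PCB, MYPT-75D and the unlisted probe sets 1635462_at and 1635652_at, named after their values were seen. They were 15 of all 113 members, and 8 of them had no role group. Cytoskeleton, polarity and adhesion held 5 of 14, metabolism 1 of 13, transport 1 of 11 and the other role groups 0. The role groups were made after the list was known and the arrays are the same, so nothing is read from these counts. GlcT and Ucp4A kept the largest mean differences, −1.26 and −1.20, but their arrays no longer separated at every time. The count of probe sets that meet the rule as deposited depended most on 5 arrays, left out 1 at a time. It was 222 without UPD 4 h replicate 1 and 354 when Mock 4 h replicate 1 was omitted. Omitting UPD 10 h replicate 2 gave 181, omitting Mock 10 h replicate 1 gave 71, and omitting Mock 10 h replicate 2 gave 208.

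**Figure D5:**
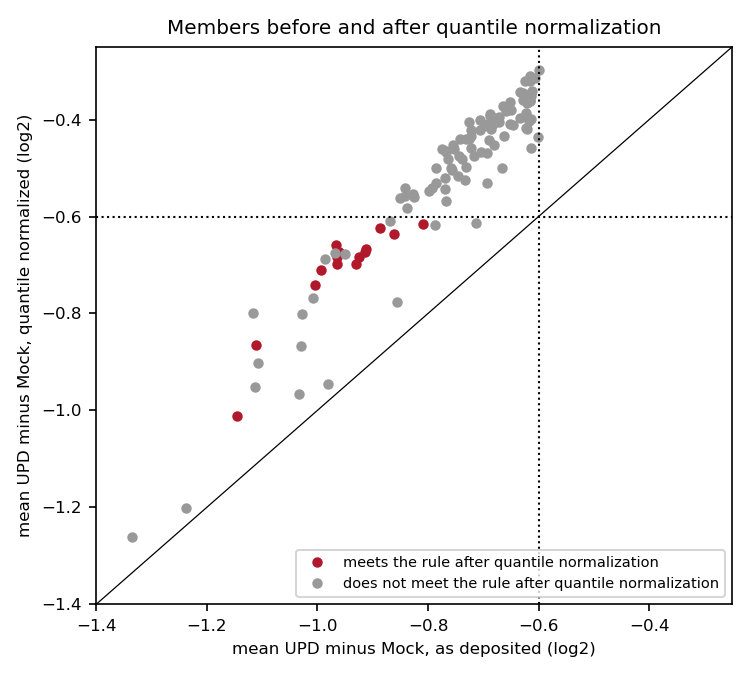
Mean of the 3 UPD minus Mock log2 differences of each member as deposited (horizontal) and after quantile normalization (vertical), with dotted lines at −0.6 and the line of equality. Points in red are the 15 members that still met the whole rule; 32 members kept a mean of −0.6 or lower.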

How the data were processed

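Affymetrix arrays of 12 Kc167 samples were used. Biotinylated cRNA was made from 1 µg of total RNA, per the labels' protocols. The values are deposited log2 numbers, 1 per probe set and array, and the log base was inferred from their range. Their summarisation and normalization were not given in the sources used here. Of 18952 probe sets, 183 controls were left out. Genes came from GEO's platform annotation, updated through a RefSeq table (13647 probe sets with 1 gene, 402 with several, 4720 with none, 13544 matched by gene ID).

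A limma 3.58.1 model (R 4.3.3) with 6 group means was fitted to all 18769 probe sets and 12 arrays (6 residual degrees of freedom), with empirical Bayes moderation, two-sided tests, Benjamini-Hochberg adjustment and a threshold of 0.05. The script was tested on simulated data. Replicates may share sources, so p-values measure only the spread between these samples. Members, lists, role groups and tests were chosen with earlier results of these data known. Any member with 1 gene could be named. The 12 with the lowest mean difference are given by array, with the 10 smallest adjusted p of a contrast, the 3 nearest the threshold on each side and 5 most like GlcT. The rule allowed 4 examples per role or list. Further examples, and the markers, laminins, Oatp74D, CecB, dome, ken and et, were chosen after their values were seen. Alternatives were quantile normalization, a shift to 1 median, other limits of the rule, a filter on dim probe sets, a variance trend, the compared arrays alone, a replicate block and leaving out each array.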

Additional observations from a re-analysis of the deposited data

How the results depend on the processing

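The number of probe sets that met the rule was 113, and 64 with arrays shifted to 1 median, 19 after quantile normalization, 201 and 36 with mean differences of −0.5 and −0.8 as the limit, 7 with 2 and 4 h alone (added after the data had been seen), and 71 to 354 when 1 array was left out, which also leaves fewer arrays to separate. Limits of 4 and 6 on the mean level gave 135 and 81. The mirrored rule, also added later, gave 16 as deposited and 46 after quantile normalization. The 82 members lower in UPD at 10 h than at 2 h were 14 after quantile normalization, 36 with the replicate block, 0 with only the arrays of both times and 0 to 101 with 1 array left out. The contrast of the difference at 10 h with that at 2 h and the F test use the differences that chose the members, and nothing is read from their counts. The contrast called 0 members, 8 with the filter on dim probe sets and 20 with a variance trend and robust moderation. The F test called 0, 6 and 26 in these fits, and Mock at 10 h against 2 h 0, 1 and 2. Without any 1 array these 3 counts stayed 0. The number called over all probe sets in each alternative fit is not given here, so nothing is read from any of these member counts. The cause of the changes between fits was not tested. The labels do not say that replicate numbers pair samples, and the same-numbered deviations of UPD and Mock over bright probe sets correlated at −0.13, −0.24 and −0.0028 at 2, 4 and 10 h. For the 12 named members the UPD difference between 10 and 2 h and the growth of the difference kept their sign in each fit run. These 12 were picked by the lowest mean difference, which favours that sign, and the fits share arrays, so nothing is read from it. Values near or below 0 have no detection calls, so the lowest UPD values at 10 h are the least certain.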
